A study of Arabidopsis thaliana with 2 samples.

Results

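Plant cells enlarge only as far as their walls yield, and the genes described here encode the proteins that build and loosen that wall. Expansins loosen walls at acid pH without cutting polymers. The EXPA and EXPB families hold the wall-loosening alpha- and beta-expansins, and the EXLA and EXLB families hold expansin-like proteins of less certain activity. XTH enzymes, the xyloglucan endotransglucosylases/hydrolases, cut and rejoin xyloglucan, the main hemicellulose of the primary wall. CESA proteins make cellulose, and the cellulose synthase-like CSL proteins make related polymers, with CSLC members making the glucan backbone of xyloglucan and CSLA members making mannans.

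The families comprised 35 of the 13356 genes that had a probe set assigned to 1 gene in the array annotation. They were chosen by symbol, as symbols starting with EXPA, EXPB, EXLA, EXLB, XTH, CESA or CSL, with or without a leading AT. There were 10 EXPA, 4 EXPB, 3 EXLA, 1 EXLB, 9 XTH and 8 CSL genes, of 24, 6, 3, 1, 30 and 30 with such symbols in the TAIR10.1 gene table. No CESA gene met the rule, so the cellulose synthases themselves were not analysed here. Each of the 35 genes had 1 probe set.

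The study compared Arabidopsis thaliana seedlings of the C24 wild type with seedlings of the ros1-1 mutant in the C24 background. ROS1 encodes a DNA glycosylase that starts the removal of methylated cytosine. Both genotypes were sampled as whole seedlings at 15 days, after growth on MS medium at 22 °C in cycles of 16 h light and 8 h dark, and 1 Affymetrix array was hybridised for each. All values are therefore single measurements without replicates, no test or p-value could be given, and the ratios describe these arrays. In whole seedlings, fewer cells of a type and less RNA per cell cannot be told apart.

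Signal is given as the authors' MAS5 intensity, on a linear scale. Signals of different probe sets cannot be set against each other, so each gene was compared only with itself across the arrays. Where a pair of signals is given without names, wild type comes first and ros1-1 second. The floor was a signal of 132, the 40th percentile of all values. A gene counted as measured where its brighter array reached the floor, and a lower signal on the other array was raised to it, which turns the ratio into a bound. The log2 ratio is that of the ros1-1 signal over the wild-type signal, so positive values are higher in ros1-1. Its error was estimated from the 61 genes with several probe sets, whose ratios differed within a gene with an SD of 0.19, 0.21 for probe sets dimmer than a signal of 507 and 0.16 for brighter ones. This error leaves out differences between plants, RNA extractions and labelling reactions. Unless stated otherwise, multiples of the error SD and the error of a difference between 2 ratios use 0.19. For dim probe sets that value is too small.

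Of the 35 genes, 23 were measured, 21 of them on both arrays, and 12 lay under the floor on both. No measured member reached a 2-fold difference, while 0.205% of all 14126 measured probe sets were higher in ros1-1 by that much and 0.241% were lower. At 1.5-fold, 1 member, XTH18, was higher and 0 were lower, against 1.85% and 1.95% of all measured probe sets. By any amount, 13 members were higher and 10 were lower, against 49.2% and 50.8% of all measured probe sets. A log2 ratio beyond 2 SD of the measurement error, a size chosen after the values were seen, was found in 9 of 23 members, 4 higher and 5 lower, against 13.2% of all measured probe sets, 6.01% higher and 7.19% lower. With the error taken separately for dim and bright probe sets, 8 members remained, against 12.8%, and EXLB1 no longer passed. The SD of the log2 ratios was 0.37 over the 23 members and 0.27 over all measured probe sets.

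**Figure D1:**
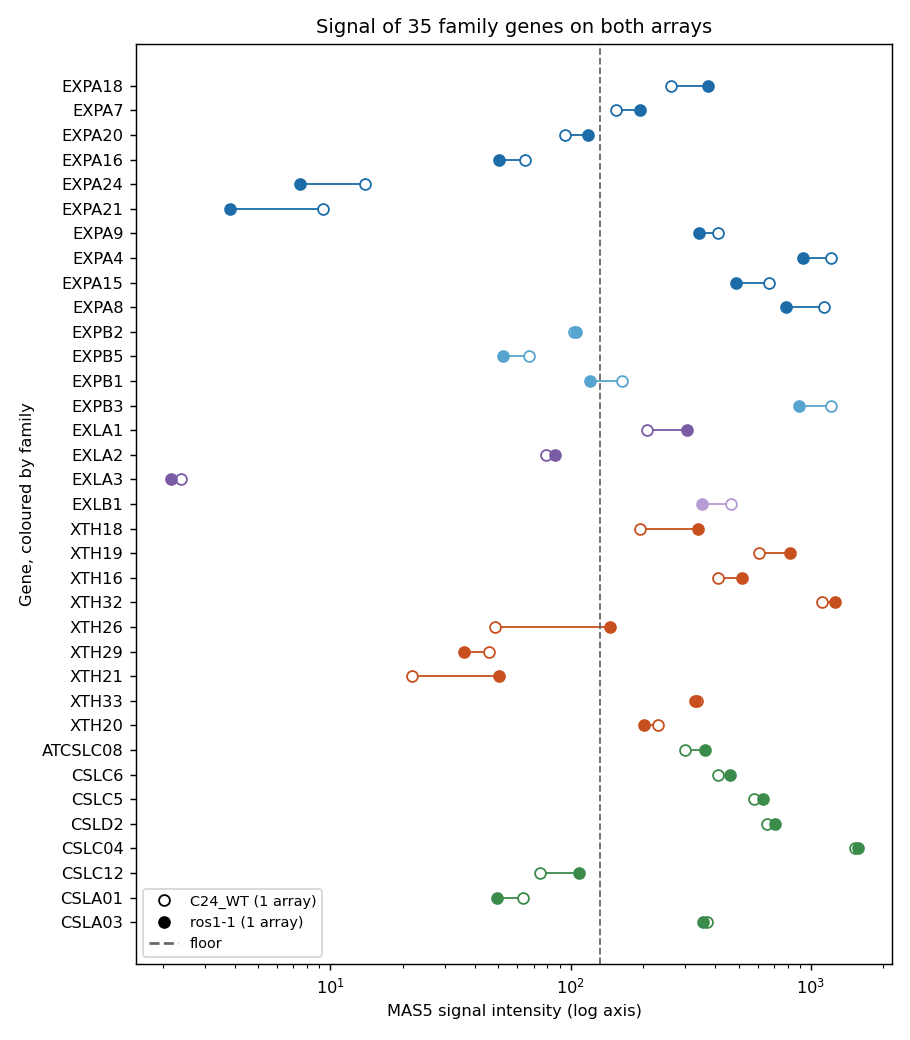
MAS5 signal intensity (log axis) of the 35 genes in C24_WT (open circles) and ros1-1 (filled circles), 1 array each, coloured by family, with the floor of 132 as a dashed line. The 12 genes left of the line on both arrays were not measured.

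The alpha-expansins divided by direction. EXPA7 and EXPA18, which are known to be expressed in root hair cells and to serve hair growth, had higher signals in ros1-1, and the other measured EXPA genes had lower ones. The signal of EXPA18 (AT1G62980) was 262 in wild type against 373 in ros1-1, a log2 ratio of 0.51. That of EXPA7 (AT1G12560) was 154 in wild type against 193 in ros1-1, a log2 ratio of 0.33. The ratio of EXPA18 was 2.64 times the error SD and that of EXPA7 was 1.71 times, so EXPA7 lay within 2 SD of no difference and EXPA18 beyond it. Both probe sets were dim, EXPA7 close to the floor in wild type, and all probe sets of their brightness varied with SDs of 0.30 for EXPA18 and 0.34 for EXPA7.

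EXPA8 (AT2G40610) had the lowest ratio of all members, at 1132 in wild type against 785 in ros1-1, a log2 ratio of -0.53. EXPA15 (AT2G03090) stood at 669 and 486, a log2 ratio of -0.46. EXPA4 (AT2G39700) stood at 1213 and 927, a log2 ratio of -0.39. These differences were between 1.31-fold and 1.44-fold, and each lay beyond 2 SD of the error. Over all measured probe sets, 7.19% were lower by more than 2 SD. EXPA9 (AT5G02260) stood at 411 and 342, a log2 ratio of -0.27, within 2 SD.

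The mean log2 ratio of EXPA7 and EXPA18 was 0.42 and the median of the 4 other measured EXPA genes was -0.42, a difference of 0.84. Among genes measured at the floor of 132, the groups did not overlap. The shares over all measured probe sets were 49.2% higher in ros1-1 and 50.8% lower. EXPA7 lay 0.59 above EXPA9, the highest of the other EXPA genes. The error of a difference between 2 ratios has an SD of 0.27 over all probe sets. That is too small here, as EXPA7 and EXPA9 were both dimmer than a signal of 507, and the gap was not tested. EXPA7 and EXPA18 had been named for this comparison with their values on these arrays known, so the separation is a description. With the floor at the 60th percentile, a signal of 325, EXPA7 was not measured and EXPA18 had a log2 ratio of 0.20. The 4 EXPA genes not measured had signals in wild type and ros1-1 of 94.4 and 118 for EXPA20, and 64.5 and 50.1 for EXPA16. EXPA24 stood at 13.97 and 7.47, and EXPA21 at 9.34 and 3.80. EXPA20, the nearest to the floor, thus stayed just outside the measured set. Its deposited log2 ratio was 0.33, on the higher side and close to that of EXPA7. At the 25th percentile floor, a signal of 54.4, EXPA20 counted as measured, so EXPA7 no longer stood clear of the others. The mean of EXPA7 and EXPA18 minus the median of the others was 0.74 there.

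Among the beta-expansins, both measured genes had lower signals in ros1-1. EXPB3 (AT4G28250) read 1214 in wild type against 887 in ros1-1, a log2 ratio of -0.45 and 2.35 times the error SD. EXPB1 (AT2G20750) had 163 in wild type and 121 in ros1-1, under the floor. With that signal raised to the floor it was at least 1.23-fold lower, a bound of -0.30 in log2 ratio that lay within 2 SD of the error. EXPB2, at 103 and 105, and EXPB5, at 66.8 and 52.3, were under the floor on both arrays. The expansin-like gene EXLB1 (AT4G17030) lay on the same side, at 464 in wild type and 350.3 in ros1-1, a log2 ratio of -0.41.

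EXLA1 (AT3G45970) was the only measured member of these 4 expansin families, EXPA7 and EXPA18 apart, with a higher signal in ros1-1. Its signal was 207 in wild type and 306 in ros1-1, a log2 ratio of 0.56, which ranked 298 from the highest among 14126 measured probe sets. EXLA2 had signals of 78.7 and 85.6, under the floor. EXLA3, the direct neighbour of EXLA1 in gene order, had signals of 2.39 and 2.16, so its ratio could not be measured. In all, 7 of the 10 measured expansins and expansin-like genes were lower in ros1-1, with a median log2 ratio of -0.34. Of all measured probe sets, 50.8% were lower. Without EXPA7 and EXPA18, which were named with their values known, 7 of 8 were lower, with a median of -0.40. Both counts depend on the floor, here the 40th percentile. At the 25th percentile floor, a signal of 54.4, EXPA20, EXLA2 and EXPB2 also counted as measured and were higher in ros1-1. EXPA16 and EXPB5 counted there as well and were lower. The share lower was thus smaller at that floor, and EXLA1 no longer stood alone.

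**Figure D2:**
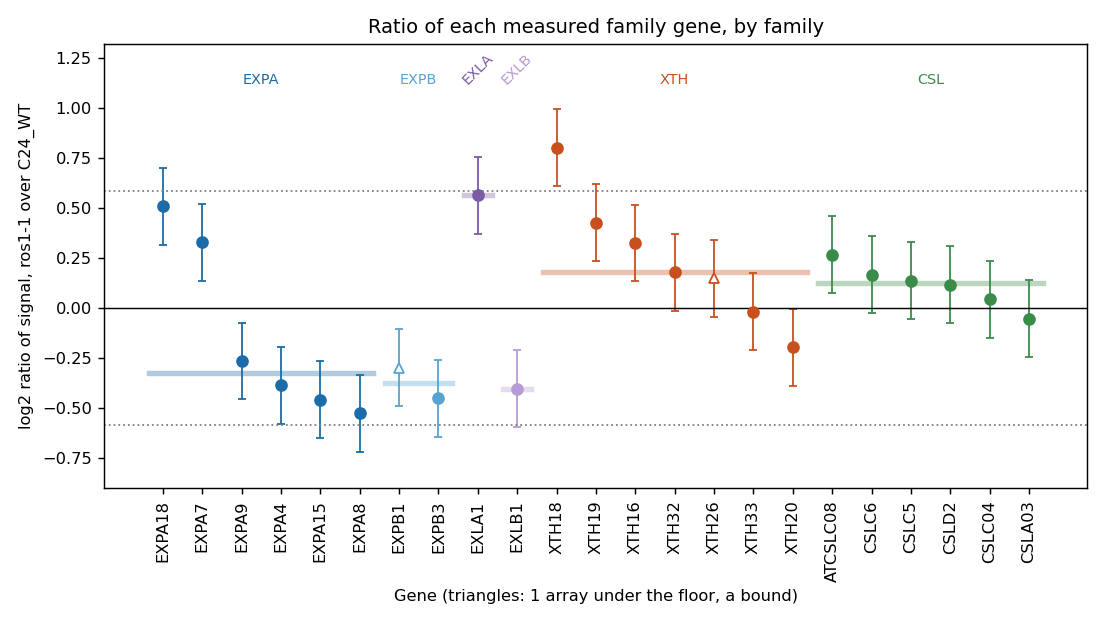
The log2 ratio of signal, ros1-1 over C24_WT, for the 23 measured genes by family, with bars of 1 SD of the measurement error (0.19), thick lines at family medians and dotted lines at 1.5-fold. EXPA7, EXPA18 and EXLA1 lie above 0 and the other expansins below it. The CSL genes lie between -0.05 and 0.27, and XTH18 is the highest at 0.80. Triangles are bounds.

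The XTH genes lay mostly on the higher side, with 5 of 7 measured members higher in ros1-1 and a median log2 ratio of 0.18. Of all measured probe sets, 49.2% were higher. XTH18 (AT4G30280), known to be expressed in the growing and hair-bearing parts of the root, had the largest ratio of all 23 members. Its signal was 194 in wild type and 339 in ros1-1, a log2 ratio of 0.80 or 1.74-fold, 4.17 times the error SD and 68 from the highest among all measured probe sets. XTH19 (AT4G30290), likewise known from roots, read 609 in wild type and 818 in ros1-1, a log2 ratio of 0.43 and 2.21 times the error SD. XTH18 and XTH19 are direct neighbours in gene order, with 0 protein-coding genes between them, and are close relatives. Whether their probe sets share signal was not tested.

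The remaining XTH genes differed less. XTH16 (AT3G23730) stood at 412 in wild type and 515 in ros1-1, a log2 ratio of 0.32. XTH32 (AT2G36870), with signals of 1111 and 1257, had a log2 ratio of 0.18, with 37 protein-coding genes between it and the ROS1 locus in gene order. XTH33 (AT1G10550), at 335 and 330.2, had a log2 ratio of -0.02, which turned to the higher side when an intensity trend was removed. XTH20 (AT5G48070), known from the vascular tissue of mature roots, was the lowest of the family, at 232 in wild type and 202 in ros1-1, a log2 ratio of -0.20. All of these lay within 2 SD of the error.

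XTH26 (AT4G28850), known from root hairs, was measured in ros1-1 only, at 146 against 48.6 in wild type, and was at least 1.11-fold higher. Its deposited values differed 3.01-fold, but log2 ratios ran from -2.87 to 3.58 in the 27 bacterial control probe sets, none of which exceeded a signal of 44.8, so a ratio over so dim a signal is uncertain. XTH21, known from roots, had signals of 21.7 and 50.1, and XTH29 had 45.5 and 36.0, both under the floor.

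The CSL genes also lay mostly on the higher side, by at most 0.27 in log2 ratio, with a median of 0.13. In ros1-1, 5 of 6 measured members were higher, against 49.2% of all measured probe sets. The SD of the CSL log2 ratios was 0.11, against 0.32 for the XTH genes and 0.44 for the EXPA genes. Without EXPA7 and EXPA18, a choice made with their values known, the SD of the EXPA genes was also 0.11. All 6 log2 ratios lay within 2 SD of the error, and the largest, 0.27, belonged to CSLC8 (ATCSLC08 in the annotation, AT2G24630), with signals of 299.7 in wild type and 360.2 in ros1-1. Of the other genes for the xyloglucan backbone, CSLC6 stood at 411 and 461, a log2 ratio of 0.16. CSLC5 stood at 576 and 633, a log2 ratio of 0.14. CSLC4 stood at 1523 and 1569, a log2 ratio of 0.04. All 4 measured CSLC genes thus lay on the higher side by small amounts, and the fifth, CSLC12, was under the floor at 74.7 and 108.

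CSLD2 (AT5G16910), which acts in tip-growing cells such as root hairs, stood at 654 and 708, a log2 ratio of 0.12. CSLA3, a mannan synthase gene, stood at 367 and 354, a log2 ratio of -0.05, and CSLA1 was under the floor at 63.0 and 49.2. Among the families with at least 2 measured genes, the medians thus ran from -0.38 in EXPB and -0.33 in EXPA to 0.13 in CSL and 0.18 in XTH, beside -0.01 over all measured probe sets. The EXPB median came from 2 genes, of which only EXPB3 was measured on both arrays and EXPB1 entered as a bound. EXLA and EXLB had 1 measured gene each, at 0.56 and -0.41. The XTH and CSL medians differed by 0.05. The XTH median lay 0.60 above that of the EXPA genes other than EXPA7 and EXPA18. Leaving out that pair, named with its values known, widened the gap, since the median of all measured EXPA genes was -0.33.

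**Figure D3:**
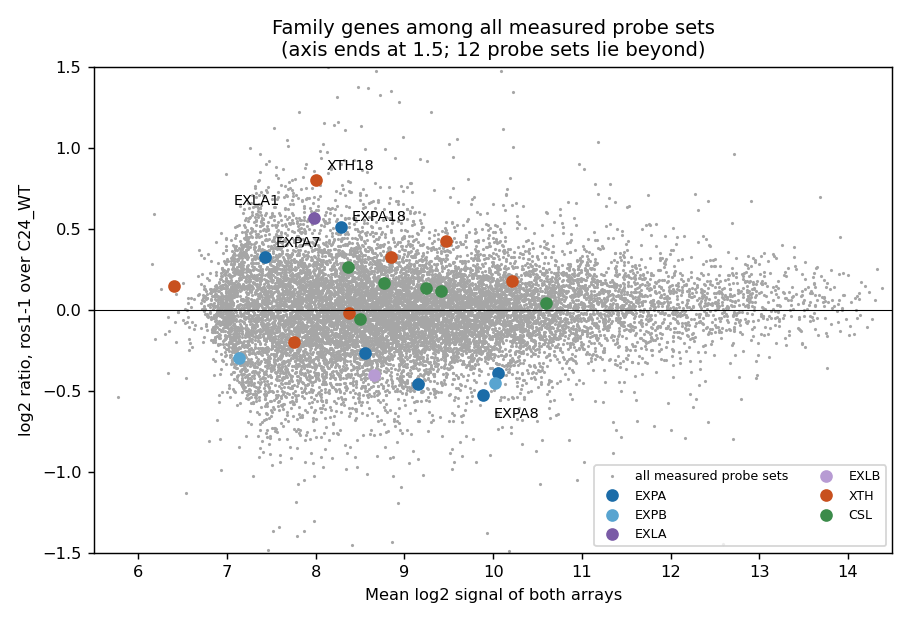
The log2 ratio, ros1-1 over C24_WT, against the mean log2 signal of both arrays for all 14126 measured probe sets (grey points) and the measured family genes (coloured by family). XTH18, EXLA1, EXPA18 and EXPA7 lie high among dim probe sets, where ratios scatter most, and EXPA8 lies low among brighter ones; 12 probe sets lie beyond the axis limits of 1.5.

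The members with the most extreme ratios differed in brightness. XTH18, EXLA1 and EXPA18, the 3 highest, came from signals of 194 to 373, where the SD of all log2 ratios was 0.30 to 0.31. EXPA8, EXPA15 and EXPB3, the 3 lowest, came from signals of 486 to 1214, where it was 0.25 to 0.28. The next members did not follow this order: XTH19, higher in ros1-1, stood at 609 and 818, and EXLB1, lower in ros1-1, at 464 and 350.3. The part of brightness in the result was not tested.

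Root hair genes outside these families gave little to set beside EXPA7 and EXPA18. Of 63 names on a root hair list, 5 had a single-gene probe set and 4 were measured, of which XTH18, XTH26 and CSLD2 are described above. The fourth, SCN1, a regulator of where root hairs emerge, stood at 982 and 971, a log2 ratio of -0.02. TRY, an R3-type MYB gene that limits trichome formation, was under the floor at 83.0 and 62.2. None of the 8 root hair markers set for this tissue check, such as COBL9 and RSL4, had a single-gene probe set. Of 6 root markers 1 was covered: PYK10, an abundant root protein, stood at 13028 and 13729, a log2 ratio of 0.08. Of 6 green tissue markers 2 were covered, with log2 ratios of 0.21 for RCA and -0.15 for LHCB4.1, and of 8 xylem markers 0 were covered. These covered genes stood above the floor on both arrays. So few markers cannot establish the tissue make-up or the root hair content, and the whole-seedling label is the only statement of the tissue sampled.

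Other cell wall genes were taken by the letters of their symbols, which gave 45 genes with a single-gene probe set after removal of 5 genes whose names show another function. Of 26 measured, 8 were higher and 18 lower in ros1-1, with a median log2 ratio of -0.13. Of all measured probe sets, 49.2% were higher and 50.8% lower. With the 5 removed genes kept, 12 of 31 measured were higher and 19 lower, with a median of -0.10. At 1.5-fold, 0 were higher and 2 were lower, against 1.85% and 1.95% of all measured probe sets, and 0 reached 2-fold. GH9B13 (AT4G02290), of the endoglucanase family that also holds the cellulose-synthesis factor KORRIGAN, had the lowest ratio, at 1097 in wild type and 588 in ros1-1, a log2 ratio of -0.90. TBL36 (AT3G54260), of the trichome birefringence-like family, whose characterised members acetylate wall polysaccharides, stood at 1017 and 647, a log2 ratio of -0.65.

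Of the measured GH9 genes 5 of 6 were lower, with a median log2 ratio of -0.21. Those 5 ran from -0.90 to -0.002 and included a bound. Of the measured TBL genes 10 of 15 were lower, with a median of -0.12. The share lower over all measured probe sets was 50.8%. TBL32 stood at 265 and 181, a log2 ratio of -0.55, from a probe set that can take signal from related genes, and TBL45 stood at 1363 and 1036, a log2 ratio of -0.40. On the higher side, TBL26 stood at 241 and 322, a log2 ratio of 0.42. TBL30, at 108 and 172, and TBL23, at 117 and 168, were at least 1.30-fold and 1.27-fold higher. COB, which encodes the COBRA protein of oriented cellulose deposition, had a log2 ratio of -0.13, and the wall-sensing receptor kinases FER and THE1 had -0.23 and 0.25.

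**Figure D4:**
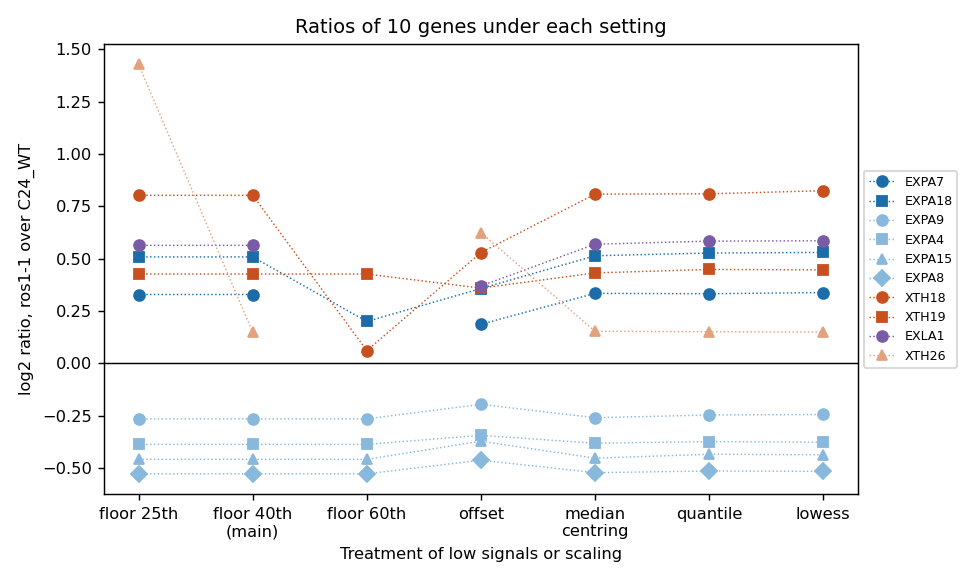
The log2 ratio, ros1-1 over C24_WT, of 10 family genes under 3 floors, an added offset and 3 rescalings, with a gap where a gene was under the floor on both arrays. Rescaling moved each point by at most 0.03, while EXPA18 and XTH18 stood at 0.20 and 0.06 with the floor of 325 and XTH26 at 1.43 with the lowest floor; the dotted lines join points of 1 gene and show no order.

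Among the dim genes, the log2 ratio of XTH26 was 0.15 with the floor of 132 and 1.43 with that of 54.4. The ratios of XTH18, EXLA1, EXPA18 and EXPA7 were the same at these floors, because both signals of each gene exceeded 132. At the 60th percentile floor, the log2 ratio of XTH18 was 0.06, since its wild-type signal was raised to 325, and EXLA1 was not measured. Raising the lower signal shrinks a ratio by construction, so the fall of XTH18 there does not test its ratio. The ratios of EXPA8, EXPA15, EXPA4 and EXPA9, and on the higher side those of XTH19, XTH16 and XTH32, were the same at all 3 floors, because both signals of each gene exceeded 325.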

How the data were processed

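Total RNA was labelled as biotinylated cRNA, per the labels' protocols. The authors deposited 1 signal intensity per probe set on a linear scale, summarised with MAS5, per the submitters' processing notes. No source used here gives its version, scaling target or detection calls. Mean signals without the outer 2% of values at each end were 499.8 on both arrays. Of 22810 probe sets, 64 controls were set aside. Names came from the platform annotation, with 13513 probe sets of 1 gene, 503 of several and 8730 unnamed, and 13436 of the 13513 matched the TAIR10.1 gene table. The files name no genome build, so no coordinates are given.

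Ratios were computed with numpy 2.4.6 and pandas 2.3.3, with lowess from statsmodels 0.14.6. The 2-fold calls were checked on simulated data, with changes larger than 2-fold in probe sets bright in wild type. The error SD, the family medians and the 1.5-fold counts were not checked this way. The 2 samples were grouped by their genotype labels, and with 1 array each no test was run. The members, gene lists and comparisons were chosen with earlier results of these data known. Any member could be named; of the other lists, up to 8 genes with the largest ratios, plus COB, FER, THE1 and TRY, which were chosen after their values were seen. Alternatives were floors at the 25th and 60th percentile, an offset in place of the floor, median centring, quantile normalization, lowess with a span of 0.3, the mean of probe sets, plain _at probe sets, membership by synonyms and, added after the data were seen, the other cell wall list with the 5 removed genes kept. Promoter and protein sequences were not used here.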

Additional observations from a re-analysis of the deposited data

How the results depend on the processing

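No paired analysis was possible because each genotype had 1 array, and for the same reason no replicate could be left out. The low-signal settings moved some results. With the floor at the 25th percentile, members at least 2-fold higher numbered 1 and those at least 1.5-fold higher 2, both through XTH26, and the EXLA median was 0.34, as EXLA2 then counted as measured. With the floor at the 60th percentile, 0 members were 1.5-fold higher, the EXLA family had no measured member, and the mean of EXPA7 and EXPA18 minus the median of the other EXPA genes was 0.62, from EXPA18 alone. With a constant offset added to every signal instead, which shrinks ratios of dim probe sets by construction, that difference was 0.63, the EXLA median was 0.37 and XTH18 was at 0.53. The other family medians moved by less than the error SD of 0.19 under every alternative run. Of 202 member values under the alternatives, 196 moved by less than this SD and 1 changed sign, XTH33 under lowess. Since each member had 1 plain _at probe set, the probe set alternatives could not alter any value. Low signal and the single array per genotype limit these values.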

Other observations

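Some genes of these families lay outside the symbol rule. EXGT-A3, which the gene table also lists as XTH27, had signals of 3247 in wild type and 3159 in ros1-1, a log2 ratio of -0.04, and with it the XTH median was 0.16. AT4G30380, listed there also as EXLB2, had signals of 2.59 and 2.93, under the floor. A probe set shared by EXPA25 and EXPA23 had signals of 1.34 and 3.86, and one shared by EXP26 and EXPA22 had 2.19 and 1.53. EXPA21 and EXPA24, with 4 protein-coding genes between them in gene order, were likewise under the floor on both arrays.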
